A study of Mus musculus with 6 samples.

Results

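A microRNA (miRNA) hairpin is the folded precursor from which the enzymes Drosha and Dicer cut short mature arms, so the reads of a processed hairpin normally fall within those arms. The 10 hairpins described here (mir-6240, mir-5099, mir-6236, mir-714, mir-712, mir-696, mir-3470a, mir-3470b, mir-3535 and mir-677) stood out because many of their reads did not. They were chosen from 1234 hairpins in the count table by the hairpin count minus the sum of its mature rows in each library, so that difference and its share of the hairpin are given below as descriptions, with no test. For mir-6240, mir-6236 and mir-714, with over 99% of reads outside the arms, the hairpin row is almost that difference itself, and no p-value is given for these 3 rows. The other hairpin rows hold such reads in part, so their p-values describe single rows and are not independent of the choice. Counts of calls over the 10 hairpins include the 3 rows without a p-value and are descriptions. Reads outside the arms can come from the rest of the precursor, from ends shifted beyond the annotated arm, or from another RNA with the same sequence, and the count table does not tell these apart.

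Small RNA was sequenced from heart cardiomyocytes of C57BL/6 mice, from total RNA extracted with TRIZOL, with a NEXTFLEX small RNA kit. The groups were adult wild type (2 libraries), adult LncSync-/- (2 libraries), e13.5 wild type (1 library) and e13.5 LncSync-/- (1 library), where e13.5 is an embryonic stage and lncSync, by its name a long non-coding RNA, is not among the rows of a miRNA table, so its loss is not checked here. The labels give no adult age, no description of the deleted allele, no statement on pooled animals or cell isolation, and do not say whether replicate libraries are separate animals; the tests therefore rest on library-to-library spread, possibly technical. LncSync-/- libraries are called knockout below.

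Hairpin counts summed to between 3332492 in the e13.5 knockout and 26649301 in an adult wild-type library, and hairpin levels are given as CPM (hairpin counts scaled to a total of 1e+06 in each library). A count of 0 allows up to 3 counts, which is 0.113 to 0.143 CPM in adults and, at e13.5, 0.276 CPM (wild type) and 0.9002 CPM (knockout, the shallowest library). For mature rows, scaled to mature totals, it is 0.164 to 0.204, 0.333 and 1.11 CPM. Hairpins of 7 cardiomyocyte markers, among them mir-1a-1, mir-133a-1 and mir-208a, summed to between 365100 and 506200 CPM in adults and to 156300 and 237200 CPM at e13.5. The copies mir-1a-1 and mir-1a-2 had nearly equal totals (12332548 and 12332293), so reads of copied hairpins appear to enter this sum and the hairpin totals more than once. Hairpin totals exceeded mature totals by more in adults (26649301 against 18277345 in wild-type replicate 1) than at e13.5 (10864813 against 9000296 in wild type). At e13.5 the smooth-muscle hairpins mir-143 and mir-145a stood at 169700 CPM in the knockout and 289000 in the wild type, against 47870 to 78230 CPM in adults. The liver hairpin mir-122 was at 37.2 CPM (wild type) and 153.6 CPM (knockout) at e13.5, and at 0.282 to 2.61 in adults. The 4 erythroid hairpins summed to 921.5 CPM (wild type) and 16990 CPM (knockout) at e13.5, against 7401 to 29840 in adults, so the e13.5 libraries also differed in blood-cell miRNAs. Leukocyte hairpins were at 47.0 and 95.1 CPM at e13.5 against 570.3 to 1166 in adults, and neuronal hairpins at 588.6 and 735.8 against 159.5 to 317.8. Endothelial mir-126a was at 13110 and 15640 CPM at e13.5 and 11240 to 20550 in adults, and the 3 mir-124 hairpins, which define neurons, were at 0 in some library. In bulk RNA, fewer cells of a type and less RNA per cell cannot be told apart. The part that other cell types had in the results below was not tested.

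The RefSeq sequences (build GRCm38.p6, which has mm10 coordinates) show how much of each hairpin lies outside its arms. A RefSeq gene was matched for 7 of the 10 hairpins, a hairpin sequence for 4 and mature sequences for 5. In the hairpins that follow, capitals mark the annotated mature arms. The first was by far the most read of the 10, the next 2 overlap small nucleolar RNA (snoRNA) genes, and the fourth, for which no arm is marked, was the second most read.
mir-6240: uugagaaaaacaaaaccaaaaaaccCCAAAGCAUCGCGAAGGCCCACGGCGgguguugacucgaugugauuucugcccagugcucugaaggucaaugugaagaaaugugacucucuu
mir-3535: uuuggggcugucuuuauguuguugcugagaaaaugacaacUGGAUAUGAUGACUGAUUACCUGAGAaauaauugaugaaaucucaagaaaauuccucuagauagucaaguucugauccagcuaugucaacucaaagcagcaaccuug
mir-677: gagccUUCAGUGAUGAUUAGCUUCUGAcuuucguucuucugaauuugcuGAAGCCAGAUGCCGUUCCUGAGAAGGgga
mir-5099: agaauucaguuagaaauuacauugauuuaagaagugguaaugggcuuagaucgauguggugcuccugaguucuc
Of mir-6240, 91 of 117 bases (77.8%) lay outside its single arm. In mir-3535 it was 121 of 147 bases (82.3%). In mir-677, which has an arm on each side, it was 30 of 78 bases (38.5%).

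The mature sequences available are printed next with the seed, bases 2 to 8 counted from the 5′ end, in capitals, because the seed sets which messenger RNAs a miRNA can pair with.
miR-6240: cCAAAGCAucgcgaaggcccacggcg
miR-6236: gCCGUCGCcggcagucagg
miR-3470b: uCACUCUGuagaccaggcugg
miR-3535: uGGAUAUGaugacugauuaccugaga
miR-677-5p: uUCAGUGAugauuagcuucuga
miR-677-3p: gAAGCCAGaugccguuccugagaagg
No seed was shared among these 6 sequences. Exact matches were counted in the 141767 transcripts of GENCODE M21. The miR-3470b sequence was found in 688 transcripts of 591 genes in the sense direction and in 602 transcripts antisense; as background, this miRNA name belongs to B1 repeat sequence. Each of the other 5 sequences was found in 1 or 2 transcripts. Only these arm sequences were searched, not the rest of each hairpin. Over 99% of the mir-6240 and mir-6236 reads lay outside the arms, so the search does not show whether those reads come from a unique place.

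Of the 7 located hairpins, 2 coincide with snoRNA genes. Mir-3535 (chr1:86351981-86352127, minus strand) spans the 80-base snoRNA gene Gm24148 (chr1:86352008-86352087) inside Ncl, the gene of the nucleolar protein nucleolin, and overlaps an exon of a retained-intron transcript of Ncl. The miR-3535 arm (chr1:86352062-86352087) begins at the first base of that snoRNA. Mir-677 (chr10:128085286-128085363, plus strand) lies in an intron of Atp5b, which encodes the beta subunit of mitochondrial ATP synthase, and contains a 72-base snoRNA (chr10:128085289-128085360) whose last base is also the last base of miR-677-3p. The letters UGAUGA, the core of the C box that snoRNA proteins recognise, stand in miR-3535 and in miR-677-5p, and in 12 of 1738 mature miRNA sequences in all (0.69%, searched on the RNA strand). The match is a description and does not show a working box.

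The other 5 located hairpins overlap no snoRNA gene. Mir-6240 (chr5:114851948-114852064, plus), Mir-6236 (chr9:110281287-110281409, plus), Mir-5099 (chr12:36816205-36816278, plus) and Mir-3470a (chr6:83090311-83090387, minus) overlap no other gene of the annotation, and Mir-3470b (chr16:44013852-44013977, plus) lies in an intron of Gramd1c on the opposite strand. For mir-712, mir-714 and mir-696 no position is given. As background, miR-712 is known as a product of the ribosomal RNA precursor that acts in endothelial cells under disturbed flow, and miR-696 is known in muscle as a repressor of the metabolic co-activator PGC-1α. The annotated RNAs behind these hairpins are thus of several kinds, and a read count for such a row is not by itself a measure of Dicer products.

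Over all 6 libraries, the share of hairpin reads outside the arms ran from 27.4% for mir-3470a to 100% for mir-6236, with a median of 68.0% over the 10 hairpins. Among hairpins with at least 100 counts, the median was 18.8% over 47 other hairpins with 1 annotated arm and 0.0101% over 393 others with 2 arms. The muscle hairpins show the usual case, with 0.00105% outside for mir-1a-1, 0.00596% for mir-133a-1 and 0.0224% for mir-208a. Ordered by reads outside the arms, mir-6240 ranked 1 of 1232 hairpins with an arm, mir-5099 ranked 3, mir-6236 ranked 7, mir-3535 ranked 10, mir-3470b ranked 11, mir-714 ranked 13, mir-677 ranked 15, mir-3470a ranked 25, mir-696 ranked 31 and mir-712 ranked 37.

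The list is not the whole of this class. Another 34 hairpins with at least 100 counts had at least 25% of their reads outside the arms. The largest were mir-690, with 9771 reads outside (58.1%), mir-466q with 4587 (99.4%), mir-3102 with 2502 (88.1%) and mir-5098 with 1711 (99.9%). The rule names its members and has no threshold. Near its smallest members, mir-8111, with 392 reads outside (95.8%), stood beside mir-696 with 394 (60.8%), and mir-466i, with 350 (25.3%), beside mir-712 with 335 (86.8%); neither was on the list. Of a list of 15 other hairpins with no partner arm in common use, 11 were in the table, 5 had at least 100 counts and only mir-690 among these 5 reached 25%. By total reads outside the arms, the other hairpins that ranked highest were let-7f-2 with 63074, mir-218-2 with 12090, mir-690, mir-194-2 with 8563 and let-7c-2 with 6284, and for let-7f-2 and let-7c-2 that was 3.53% and 2.15% of the hairpin.

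**Figure D1:**
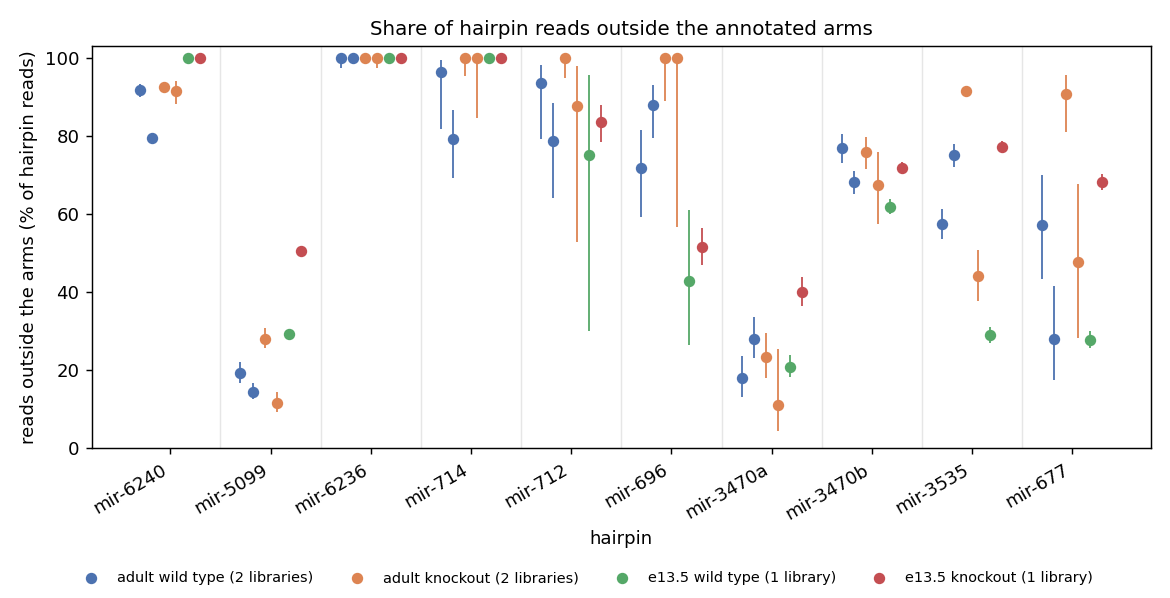
Share of hairpin reads outside the annotated arms (%, y axis) for each of the 10 hairpins (x axis), 1 point per library with its Wilson 95% interval, coloured by group. mir-6236 is at 100% in every library, mir-6240 at 79.3% or more, and mir-3535 and mir-677 differ most between libraries, from 28.9% to 91.4% and from 27.8% to 90.6%.

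The arms of mir-6236 and mir-714 were all but unread. miR-6236 had 0 counts in all 6 libraries while its hairpin had 135 and 703 in adult wild type, 902 and 135 in adult knockout, and at e13.5 1296 in wild type and 3443 in knockout. miR-714 had 1 and 17 counts in the adult wild-type libraries and 0 in the other 4, against 27 and 82 (wild type) and 76 and 21 (knockout) for the hairpin in adults and 332 and 2685 at e13.5. The second arm of mir-712, miR-712-3p, also had 0 counts throughout. For these rows the hairpin count therefore says next to nothing about a mature miRNA.

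In mir-6240 the arm held a small share of the hairpin reads, and least at e13.5. The hairpin had 1192 and 3370 counts in adult wild type, 2264 and 365 in adult knockout, and at e13.5 79819 in wild type and 144239 in knockout. Its arm miR-6240 had 99 and 697 in adult wild type, 169 and 31 in adult knockout, and 61 and 120 at e13.5. The share outside the arm was 79.3% to 92.5% in adults and 99.92% in both e13.5 libraries. At e13.5 this 1 hairpin held 75.5% of the wild-type counts of all 10 and 82.0% of the knockout ones.

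The other hairpins lay between these cases, and their shares moved between libraries. Outside shares of mir-5099 were 19.3% and 14.5% in adult wild type, 28.1% and 11.6% in adult knockout, and at e13.5 29.3% in wild type and 50.5% in knockout. For mir-3535 they were 57.5%, 75.1%, 91.4%, 44.0%, 28.9% and 77.3% in the same order. For mir-677 they were 57.1% in adult wild-type replicate 1, with 14 of 50 reads in replicate 2, 90.6% and 47.6% in adult knockout, and 27.8% and 68.3% at e13.5. In both snoRNA-overlapping hairpins the share was highest in adult knockout replicate 1, low in the e13.5 wild type and high in the e13.5 knockout. This was not particular to them. The share of mir-712 was also highest in adult knockout replicate 1 (69 of 69 reads) and lowest in the e13.5 wild type (3 of 4 reads). That of mir-5099 was likewise higher in the e13.5 knockout than in the e13.5 wild type. The counts behind mir-677 are small in adults, with 21 to 64 hairpin reads, and its Wilson 95% interval in adult wild-type replicate 2 was 17.5% to 41.7%.

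The paired names mir-3470a and mir-3470b differed. mir-3470a stayed mostly within its arm, with 11.1% to 28.1% outside in adults, and at e13.5 20.9% in wild type and 40.1% in knockout. mir-3470b had 67.4% to 76.9% outside in adults, and at e13.5 61.8% in wild type and 71.8% in knockout. The sources do not state how reads that match many places were assigned, and with 688 transcripts holding the miR-3470b sequence these 2 rows are uncertain as measures of their own loci.

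Together the 10 hairpins were rare in adults and held a sizeable share of counts at e13.5. The shares are of hairpin totals, which appear to hold reads of copied hairpins more than once, and more so in adults. They held 0.0138% and 0.0299% of hairpin counts in adult wild type, 0.0332% and 0.00554% in adult knockout, and at e13.5 0.973% (Wilson 95% interval 0.967% to 0.978%) in wild type and 5.28% (5.25% to 5.30%) in knockout. Without mir-6240 the e13.5 values were 0.238% and 0.949%, and the adult values 0.00417% to 0.0224%. Of all reads outside arms, they held 4.06% to 18.6% in adults and, at e13.5, 76.6% in wild type and 91.1% in knockout, a quantity that chose them. The level was lowest in adult knockout replicate 2 of the 4 adult libraries for 9 of the 10, as it was for 51.8% of 446 other hairpins with at least 100 counts.

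The first question was whether these RNAs differ between e13.5 and adult cardiomyocytes. The rule did not compare stages, but it used both the hairpin count and the arm counts, the latter subtracted, so neither is independent of how the members were chosen. The tests that follow describe single rows and give no support to the list as a group. The arms of mir-677, mir-5099, mir-3470b, mir-3535 and mir-3470a were higher at e13.5, and so was miR-696, on less firm ground. miR-6240 was not called.

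miR-677-5p, the largest in fold among the arms with counts in every library, had 15, 29, 6 and 11 counts in the adult wild-type and knockout libraries, and at e13.5 1298 in wild type and 618 in knockout. In CPM of mature totals it was at 0.889 ± 0.570 (SD, n = 4) in adults and at 144.2 and 229.0 at e13.5, so the lowest e13.5 library was 84.6-fold above the highest adult one. Its log2 fold was 6.65 (SE 0.67, adjusted p = 3.16e-05). The other arm, miR-677-3p, had 6, 7, 0 and 0 counts in adults and 13 and 29 at e13.5 (log2 fold 4.79, SE 1.87, adjusted p = 0.0518) and did not pass, although the groups did not overlap.

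miR-5099 had 669, 938, 848 and 505 counts in adults and 12335 and 7914 at e13.5. That is 44.5 ± 14.3 CPM (SD, n = 4) of mature counts in adults and 1371 and 2933 CPM at e13.5, with no overlap between stages. Its log2 fold was 4.43 (SE 0.47, adjusted p = 4.10e-05). The adult libraries, at 28.4 to 57.7 CPM, lay close together beside that difference.

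miR-3535, the arm at the start of the snoRNA, had 273, 193, 153 and 122 counts in adults and 1225 and 642 at e13.5 (log2 fold 3.01, SE 0.48, adjusted p = 0.000499). miR-3470b had 119, 300, 102 and 31 against 917 and 930 (log2 fold 3.85, SE 0.77, adjusted p = 0.00184). miR-3470a had 170, 197, 158 and 32 against 644 and 403 (log2 fold 2.73, SE 0.63, adjusted p = 0.00404). In CPM of mature totals, both e13.5 libraries lay above all adult libraries for each of these 3 arms. Without the e13.5 knockout library the log2 fold was 2.41 for miR-3470b (adjusted p = 0.0501) and 2.15 for miR-3470a (adjusted p = 0.0686). Without the e13.5 wild type miR-3470b was at 4.98, and without adult wild-type replicate 1 miR-3470b was at 4.43, miR-3470a at 3.37 and miR-3535 at 3.78.

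miR-696 depended on several single libraries. It had 17 and 11 counts in adult wild type, 0 and 0 in adult knockout, and at e13.5 16 in wild type and 210 in knockout. The log2 fold was 6.46 (SE 2.19, adjusted p = 0.0303). Without the e13.5 knockout library the log2 fold was 0.58 (adjusted p = 0.857), without adult knockout replicate 1 it was 3.87 (adjusted p = 0.194) and without replicate 2 it was 4.06 (adjusted p = 0.135). Without adult wild-type replicate 2 the adjusted p was 0.0635. The log2 fold was 7.33 without adult wild-type replicate 1 (adjusted p = 0.0331) and 11.8 without the e13.5 wild type (adjusted p = 0.000294).

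miR-6240, the arm of the most abundant hairpin, did not pass, with a log2 fold of −0.06 (SE 1.21, adjusted p = 0.972). Its levels of 5.42, 41.0, 11.5 and 1.75 CPM in adults overlapped the 6.78 and 44.5 CPM at e13.5, and the sign of the fold changed with the scaling: 0.73 with DESeq2's size factors and 1.10 by library totals. miR-712-5p had 2, 9, 0 and 1 counts in adults and 1 and 38 at e13.5 (log2 fold 3.98, SE 2.48, adjusted p = 0.201). It passed the filter on low counts through the e13.5 knockout library alone. Its adjusted p of 0.0265 with library totals thus rests on the library that admitted it. Over the fits without 1 library its log2 fold ran from 1.83 to 6.93. miR-714, with 0 counts at e13.5, did not pass (adjusted p = 0.286).

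Of 12 arms of the members, 10 passed the filter on low counts and 6 were called higher at e13.5, against 25.7% of all mature rows tested, and 0 were called lower, against 24.8%, with 50.6% called in either direction. Arms such as miR-712-5p and miR-677-3p, with fewer than 10 counts in each adult library, passed that filter through e13.5 libraries, so the count is no support for a difference of the arms as a group. The median log2 fold of all 769 mature rows was −0.41. With DESeq2's size factors the median of all rows was 0.38 and by library totals 0.65, and the share of calls that were higher went from 50.9% to 65.3% and 68.6%. The 5 arms called apart from miR-696 were higher under each of these scalings.

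The hairpin rows were also higher at e13.5, with folds and p-values that include the reads used to choose them. Among the rows with a p-value, those reads made up 27.4% (mir-3470a) to 86.8% (mir-712) of the hairpin. In CPM, mir-6240 had 44.7 and 135.6 in adult wild type, 107.6 and 13.7 in adult knockout, and at e13.5 7347 in wild type and 43283 in knockout, so the lower e13.5 library was 54.2-fold above the highest adult one. Its log2 fold was 6.89 (SE 0.86), 5.70 without the e13.5 knockout and 7.83 without the e13.5 wild type. mir-677 had 1.84, 2.01, 3.04 and 0.789 CPM in adults against 167.1 and 612.2 (log2 fold 6.20, SE 0.57, adjusted p = 5.24e-05). These 2 hairpins had the widest gaps between stages of the 10.

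mir-5099 went from 38.2 ± 15.1 CPM (SD, n = 4) in adults to 1605 and 4799 CPM (log2 fold 4.96, SE 0.48, adjusted p = 5.51e-05). mir-714 went from 2.18 ± 1.48 CPM (SD, n = 4) to 30.6 and 805.7 CPM, with a log2 fold of 5.38 (SE 0.99) that was 3.18 without the e13.5 knockout, 6.80 without the e13.5 wild type and 4.77 without adult knockout replicate 2. mir-6236 had a log2 fold of 3.05 (SE 0.84), which was 2.17 without the e13.5 knockout, 3.79 without the e13.5 wild type and 3.90 without adult wild-type replicate 2. Log2 folds were 3.67 (SE 0.75) for mir-3470b, 2.97 (SE 0.66) for mir-3470a and 2.23 (SE 0.65) for mir-3535, at adjusted p of 0.00244, 0.00417 and 0.0165. Without the e13.5 knockout library they were 2.32, 2.38 and 1.91, and mir-3535 no longer passed (adjusted p = 0.112). mir-3470b was at 4.71 without the e13.5 wild type, and mir-3535 at 2.98 without adult knockout replicate 1. For 8 of the 10 hairpins both e13.5 libraries lay above all 4 adult ones, as they did for 54.6% of the 456 hairpins with at least 100 counts.

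The exceptions were mir-712 and mir-696, whose e13.5 libraries were far apart. mir-712 had 31, 42, 69 and 8 counts in adults, and at e13.5 4 in wild type and 232 in knockout (log2 fold 1.85, SE 1.59, adjusted p = 0.341). mir-696 had 60, 90, 31 and 5 in adults, and at e13.5 28 in wild type and 434 in knockout (log2 fold 3.69, SE 1.68, adjusted p = 0.0895). Without the e13.5 knockout library the log2 folds turned to −2.55 and −0.81. mir-696 passed without adult wild-type replicate 2 (adjusted p = 0.0419), and both passed without the e13.5 wild-type library (adjusted p = 0.0168 for mir-712 and 0.00103 for mir-696).

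All 10 hairpins passed the filter on low counts and 8 were called higher at e13.5, where 31.7% of the 649 hairpins tested were called higher, 19.9% lower and 51.6% in either direction. The count is a description, since the hairpin rows contain the reads that chose the list, and it includes the 3 rows for which no p-value is given. The median log2 fold was 3.68 over the 10, 1.22 over 105 other hairpins with 1 arm and 0.66 over 526 with 2 arms. All hairpins had a median of 0.93, which rose to 2.20 with library totals, and the share of calls that were higher went from 61.5% to 79.6%. Of the fixed list of other hairpins, 9 were tested, mir-690 (log2 fold 6.53) and mir-6238 (4.42) were higher, mir-5126 was lower and 6 did not pass. The labels give no batch, and stage cannot be told apart from how hearts of each stage were dissected.

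**Figure D2:**
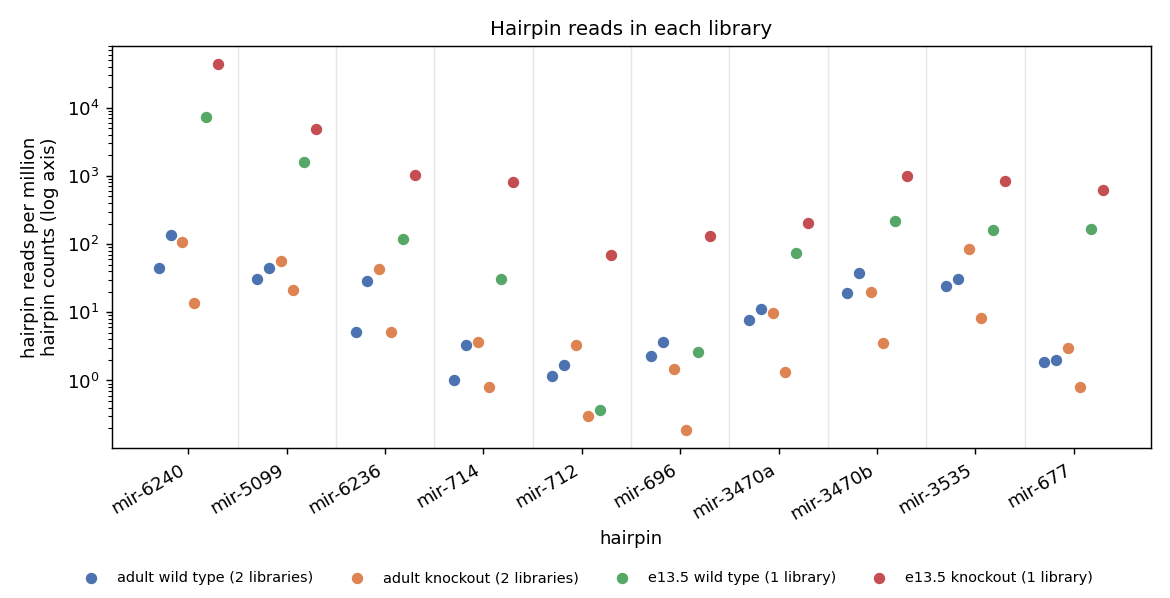
Hairpin CPM (y axis, log) for each hairpin (x axis), 1 point per library, coloured by group. In 8 of 10 hairpins both e13.5 points lie above the 4 adult points, mir-712 and mir-696 have an e13.5 wild-type point within the adult range, and the e13.5 knockout point is the highest in all 10.

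**Figure D3:**
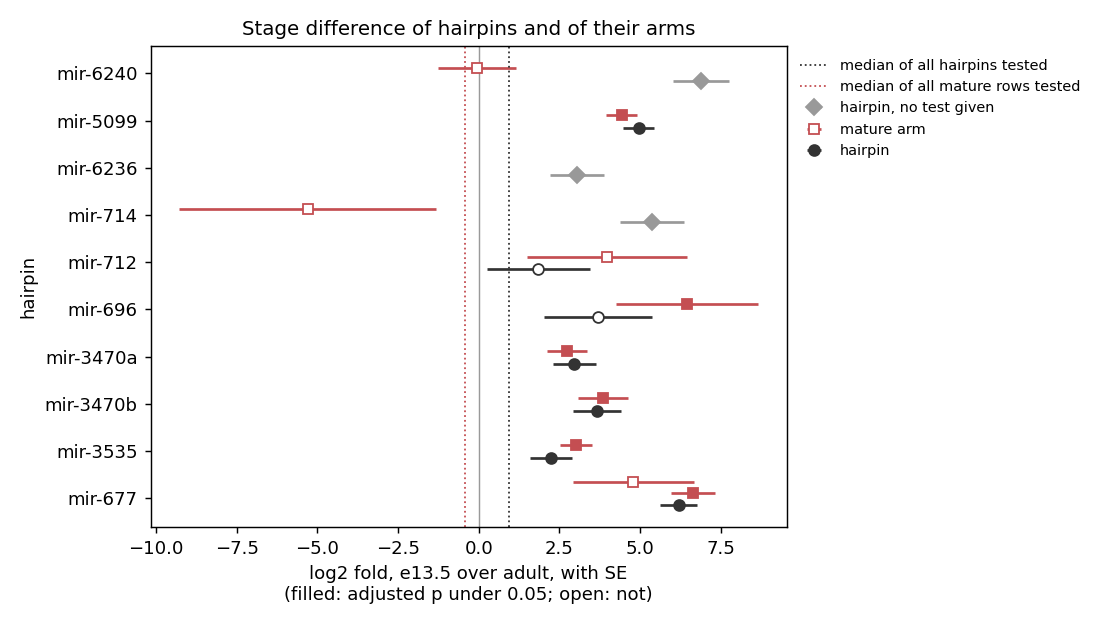
Log2 folds of e13.5 over adult with SE (x axis) from the edgeR fits, for hairpin rows (circles) and mature arms (squares), filled where the adjusted p was under 0.05, and for the 3 hairpins with no test given (grey diamonds), with dotted lines at the medians of all rows tested. The arm of mir-6240 sits at −0.06 (0.73 and 1.10 under other scalings) while its hairpin is at 6.89; the fold of the miR-714 arm, with 0 counts at e13.5, depends on the prior count and is no bound.

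The second question was whether loss of lncSync changes these RNAs in adult cardiomyocytes. None of the 10 hairpins passed the test (edgeR, 0 at an unadjusted p under 0.05, and 0 called by DESeq2). Of 474 hairpins tested, 0.633% were called lower in knockout and 0% higher. The 3 called were mir-322, mir-351 and mir-503. Log2 folds of the members ran from −1.78 (SE 0.89) for mir-696 to 0.74 (SE 0.73) for mir-3535, with adjusted p of 0.995 for each of the 2, and the median was 0.11 against 0.14 over all hairpins.

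The adult knockout libraries lay 1 above and 1 below both wild types for 5 hairpins (mir-5099, mir-714, mir-712, mir-3535 and mir-677), so the genotype values carry a wide error. mir-3535 was at 24.1 and 31.2 CPM in wild type and at 84.3 and 8.19 CPM in knockout. mir-6240 was at 44.7 and 135.6 CPM in wild type and at 107.6 and 13.7 in knockout, with the groups overlapping. mir-696 was the only one of the 10 whose knockout libraries, at 1.47 and 0.188 CPM, both lay below the wild types, at 2.25 and 3.62 CPM, an order that 24.8% of the 456 hairpins with at least 100 counts showed.

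Single knockout libraries gave other folds. Without knockout replicate 1, the log2 folds were −2.39 for mir-3470b, −2.17 for mir-3470a and −2.12 for mir-6240. Over the fits without 1 library, the folds of these hairpins reached −0.65, −0.11 and 0.47 at the other end. Without knockout replicate 2, mir-3535 was at 1.44. In these fits the lone knockout library is assumed to vary like the wild types, and the sign of mir-3535 went from 1.44 to −1.12 with the library left out.

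The arms gave the same picture in adults, with 7 of 12 tested and 0 called by edgeR or DESeq2 (1 at an unadjusted p under 0.05), where 0.735% of mature rows were called lower and 0% higher. miR-696 had 17 and 11 counts in wild type and 0 in both knockouts. Its fitted log2 fold of −6.64 (SE 2.55, adjusted p = 0.999) depends on the prior count and is no bound. Log2 folds of the other 6 ran from −1.91 (SE 1.06) for miR-6240 to 0.02 (SE 0.48) for miR-5099. Without knockout replicate 1, the log2 folds were −3.24 for miR-6240, −2.26 for miR-3470b and −1.96 for miR-3470a. Over the fits without 1 library, the folds of these arms reached 0.28, −0.54 and −0.17 at the other end. Each of these fits leaves a genotype with a single library, so they do not separate genotype from that library.

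No genotype test can be made at e13.5, with single libraries. Every one of the 10 hairpins had more CPM in the e13.5 knockout than in the e13.5 wild type. Counts of mir-696 were 28 in wild type and 434 in knockout, a CPM ratio of 50.5 (95% counting interval 34.5 to 76.95). Counts of mir-712 were 4 and 232, a ratio of 189.1 (72.9 to 699.9), and counts of mir-714 were 332 and 2685, a ratio of 26.4 (23.5 to 29.6). The intervals cover counting error only, and the ratios compare 2 libraries.

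For the other hairpins the ratio was 8.66 for mir-6236, 5.89 for mir-6240, 5.34 for mir-3535, 4.48 for mir-3470b, 3.66 for mir-677, 2.99 for mir-5099 and 2.70 for mir-3470a. A ratio of at least 4-fold was reached by 7 of the 10, against 15.8% of 512 hairpins with at least 10 counts in either library. With TMM scaling, which lowers every ratio by 0.99 on the log2 scale, it was reached by 4 of the 10 (mir-712, mir-696, mir-714 and mir-6236), against 7.42%. The median log2 ratio was 2.49 over the 10 and 0.40 over all hairpins with library totals, and 1.5 over the 10 and −0.58 over all with TMM. The rule read these libraries too, so the counts and medians over the 10 are descriptions. The e13.5 knockout library was the shallowest and had the highest level of 37.9% of the 446 other hairpins.

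Arms moved less than hairpins for some members. miR-3535 had 1225 wild-type and 642 knockout counts at e13.5, a ratio of 1.75 (95% counting interval 1.59 to 1.93) in CPM of mature totals, against 5.34 for its hairpin. The 2 arms of mir-677 together had a ratio of 1.65 (1.496 to 1.81) against 3.66 for the hairpin. All ratios in this paragraph are by library totals. The TMM factors of mature rows, 1.23 in the e13.5 wild type and 2.20 in the e13.5 knockout, lower every arm ratio. They take those of miR-3535 and of the mir-677 arms below 1, so no rise of these arms is read from them. For mir-5099 the arm had 2.14 (2.08 to 2.20) against 2.99, for mir-3470b 3.38 (3.08 to 3.71) against 4.48 and for mir-3470a 2.09 (1.84 to 2.37) against 2.70. In these 5 the reads that were more frequent in the knockout thus lay more outside the arms than within them, a difference built from the measure that chose the list. The arms of mir-6240 and mir-696, at 6.56 (4.78 to 9.08) and 43.8 (26.3 to 78.0), had intervals that include the hairpin's ratio.

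**Figure D4:**
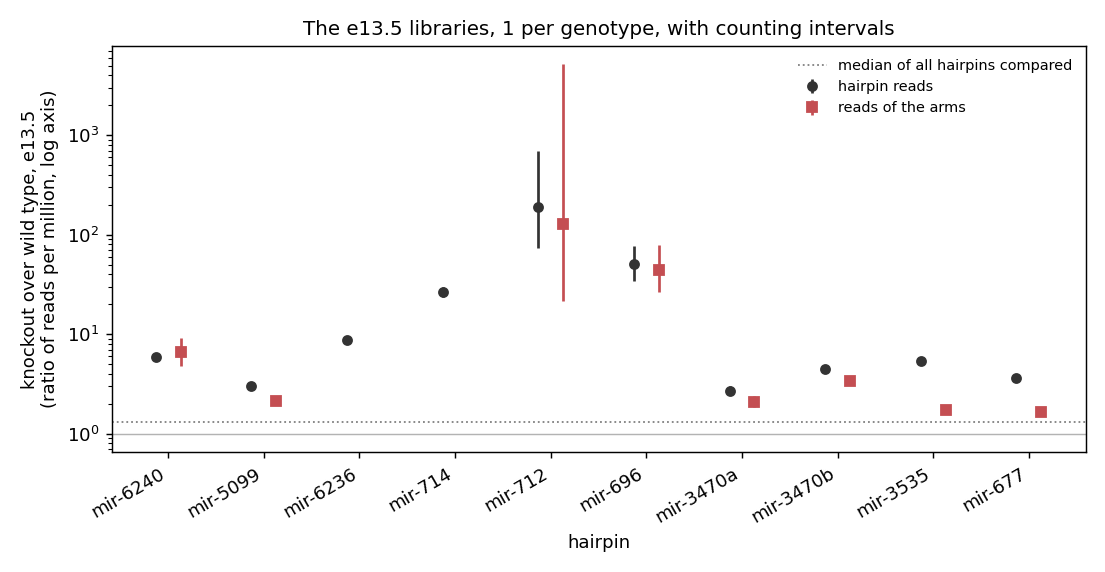
Ratio of the e13.5 knockout library over the e13.5 wild-type library (y axis, log) for each hairpin (x axis), in CPM of hairpin totals for hairpins (circles) and of mature totals for the arms together (squares), with 95% counting intervals; the dotted line is the median of all hairpins compared. All 10 hairpins lie above 1, from 2.70 for mir-3470a to 189.1 for mir-712, and the arms of mir-3535 and mir-677 lie at 1.75 and 1.65. TMM scaling, not shown, takes these arm ratios below 1.

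The interaction of genotype and stage asked whether the knockout difference changed between stages. All 10 estimates were positive, that is, with a higher knockout to wild-type ratio at e13.5 than in adults. So were those of 265 of the 649 hairpins tested and of 76 of 105 other hairpins with 1 arm. None of the 10 passed in edgeR, where 0% of 649 hairpins were called in either direction. The largest estimates on the log2 scale were 6.55 (SE 1.61, adjusted p = 0.479) for mir-696, 6.31 (SE 1.94, adjusted p = 0.511) for mir-712 and 3.74 (SE 1.28) for mir-714. An unadjusted p under 0.05 was reached by 3 of the 10 and by 39 of all 649 hairpins. DESeq2 called 11 hairpins in all, 2 of them members: mir-696 (6.71, adjusted p = 0.00507) and mir-712 (6.49, adjusted p = 0.0489). Only adult replicates inform the spread here, so each single e13.5 library is taken to have the same spread. Without an adult knockout library, only the adult wild types are replicated, so calls are not given for these fits. Over the fits without 1 adult library, estimates ran from −0.0053 to 0.799 for mir-5099 and −0.25 to 3.28 for mir-6236. The other members stayed positive, among them mir-6240 at 0.986 to 3.71 and mir-714 at 2.41 to 4.59.

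The median interaction was 1.998 over the 10, 1.04 over 105 other hairpins with 1 arm and −0.71 over 526 with 2 arms, so hairpins with 1 annotated arm lay on the same side as the members. These are descriptions of rows that share libraries.

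Levels of the 10 moved together across the 6 libraries. On log2(CPM + 1), Pearson's r over the 45 pairs ran from 0.64 for mir-5099 with mir-712 to 0.999 for mir-5099 with mir-677, with a median of 0.94. The points share library, depth and stage. Among other hairpins with a mean of at least 10 CPM, those most like mir-6240 were mir-5098 (r = 0.995), mir-129-2 (0.992) and mir-184 (0.992) over the same 6 libraries. Most like mir-5099 were mir-184 (r = 0.9996), mir-182 (0.999) and the member mir-677. Of these, mir-5098 also has nearly all its reads outside its arm.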

How the data were processed

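The deposited values, made by the authors, are whole-number read counts without normalisation, 1 column per library, for 1234 hairpin and 1974 mature miRNA rows; 0 columns belonged to other samples. The submitters' processing notes name mm10. Aligner, counter, trimming and the treatment of reads matching several rows: not given in the sources used here. How trimming and multiple matches were handled sets which reads fall within an arm. Since no molecular identifiers are mentioned, intervals and floors describe counting error alone.

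Reads outside the arms were the hairpin count minus its mature rows, matched by name (2 hairpins had none). The difference was negative in some library for 37 hairpins, none of them members. Shares carry Wilson 95% intervals and ratios exact binomial ones.

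Tests used edgeR 4.0.16 in R 4.3.3 (quasi-likelihood, two-sided) with TMM, filterByExpr at a minimum count of 10 and Benjamini-Hochberg adjustment at 0.05 over all rows tested. Stage was fitted over 6 libraries with genotype as a term, adult genotype over 4 libraries, and the interaction over 4 group means. Mature rows holding the same reads (within 1% of totals of at least 20, in at least 3 libraries) were merged, leaving 1952. The TMM factor was 2.56 in the e13.5 knockout and 0.523 to 1.29 elsewhere. The fit code was run on simulated data with a smaller spread than was fitted here, so that run does not show how the tests perform on these libraries. DESeq2 1.42.0 was an alternative. Sequences came from RefSeq (GRCm38.p6) and annotation from GENCODE M21.

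Named by rule were the 10 members with their arms, 8 muscle and reference hairpins, the 5 other hairpins with most reads outside their arms, and the 3 most like each of the 2 members with the highest mean CPM. Other hairpins were named after their values were seen. The members and lists were chosen with earlier results of these data known.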

Additional observations from a re-analysis of the deposited data

Results flagged for a closer look

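By CPM of library totals, in some members the knockout difference went opposite ways at the 2 stages in every library, and in mir-712 the stage difference went opposite ways in the 2 genotypes. These were read off the libraries, and the differences were not tested for the arms; no hairpin interaction passed in edgeR, while DESeq2 called those of mir-696 and mir-712. The e13.5 knockout library, which is the only one of its group, had the highest value in all 7. It also did so in 37.9% of 446 other hairpins, and both adult knockouts lay below both wild types in 25.1% of them. How many rows outside the list show the full pattern was not counted.

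For mir-696 the adult knockout libraries lay below the wild types (means 0.831 and 2.94 CPM), while at e13.5 the knockout was 50.5 times the wild type (130.2 and 2.58 CPM). Its arm miR-696 had 0 counts in both adult knockouts and 0.789 CPM in adult wild type, and at e13.5 the knockout was 43.8 times the wild type. For mir-712 the e13.5 wild type was 0.258 times the adult wild-type mean (0.368 and 1.43 CPM), whereas the e13.5 knockout, at 69.6 CPM, was above both adult knockouts.

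By CPM of mature totals, the arms of mir-712, mir-3535 and mir-677 were lower in both adult knockouts and higher in the e13.5 knockout. The TMM factor of mature rows was 1.23 in the e13.5 wild type and 2.20 in the e13.5 knockout. Scaled by these factors, the e13.5 ratios of miR-3535 and miR-677-5p fall below 1. With TMM factors in adults, miR-677-5p is no longer lower in both knockouts. At e13.5 the knockout to wild-type ratio was 126.7 for miR-712-5p (1 count in the wild type), 1.75 for miR-3535, 7.44 for miR-677-3p and 1.59 for miR-677-5p. Adult counts behind miR-712-5p, miR-677-3p and miR-677-5p were at most 29 in a library.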

How the results depend on the processing

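With wild-type libraries only, the stage log2 folds of the hairpins mir-712 and mir-696 were −2.58 and −0.85. The arm miR-6240 had a stage log2 fold of 0.73 with DESeq2's size factors, 1.10 with library totals, 0.74 by DESeq2 and 0.53 with the replicate block. In adults, mir-677 was at −0.013 with library totals and −0.020 without the filter on low counts, mir-714 at −0.047 without the filter and −0.0057 with rows holding the same reads merged, mir-712 at −0.084 with the replicate block and miR-5099 at −0.086 with library totals. Calls between adult genotypes went from 3 hairpins to 7 without the filter and to 1 with the replicate block, and from 4 mature rows to 9 without the filter. The interaction went from 0 calls to 8 without the filter and 11 by DESeq2. The replicate numbers were not shown to pair the libraries: the correlation of replicate differences was 0.0276 over 474 hairpins. By CPM of reads outside the arms, 10 members were highest in the e13.5 knockout, against 2 by share. Leaving out 1 library at a time, adult calls ran from 1 to 33 hairpins and 5 to 47 mature rows, and interaction calls from 0 to 84; leaving out an e13.5 library gives no interaction. Over the same fits, stage log2 folds ran from −2.55 to 3.65 for mir-712, from −0.81 to 5.61 for mir-696 and from −2.48 to 1.49 for miR-6240. Adult genotype log2 folds ran from −2.12 to 0.47 for mir-6240, −0.18 to 0.50 for mir-5099, −1.14 to 2.26 for mir-6236, −0.85 to 1.21 for mir-714, −1.61 to 1.03 for mir-712, −1.12 to 1.44 for mir-3535, −0.65 to 0.496 for mir-677, −0.35 to 0.38 for miR-5099 and −3.24 to 0.28 for miR-6240. Interaction estimates ran from −0.0053 to 0.799 for mir-5099 and −0.25 to 3.28 for mir-6236. The cause of these changes was not tested. Depth limits the arms with few reads, such as miR-714 with 18 counts in all, miR-712-5p with 51 and miR-677-3p with 55.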
